A study of Homo sapiens with 14 samples.

Results

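The comparison described here set the heavy polysome mRNA of DAP5-silenced breast cancer cells against a control in which the heavy and moderate polysome pools of each culture had been joined, and asked which genes still differed after the joining. All 6 libraries came from MDA-MB-231, an established triple-negative human breast cancer line of mesenchymal appearance. The cells carried a doxycycline-inducible lentiviral vector, coding in MB-231-shDAP5 for an shRNA to DAP5 and in the control MB-231-shNSi for an shRNA without a target, and every culture, controls included, received doxycycline at 1 µg/ml for 6 days before the gradients were run. The lines had been selected with puromycin and sorted for the red fluorescent reporter of the vector, so each construct stands for 1 selected line, with 2 cultures. For each shNSi culture the counts of the heavy and the moderate library were added gene by gene, which gave 4 columns, 2 for shDAP5 heavy and 2 for joined shNSi. Members are the 15227 of 58434 deposited gene symbols that had at least 10 counts in 2 or more of these 4 columns. Of the others, 31843 had no read in any of the 6 libraries and 11364 had reads but stayed below that minimum. The members include 12699 protein-coding genes.

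Polysome profiling separates mRNAs by the number of ribosomes they carry, so that an mRNA loaded with many ribosomes sinks into the heavy fractions of a sucrose gradient and one with few ribosomes stays higher up. DAP5, encoded by EIF4G2, is a relative of the scaffold protein eIF4GI that lacks the binding site for the cap-binding protein eIF4E. How many ribosomes an mRNA can hold depends on the length of its coding sequence as well as on how often translation starts on it, and mRNAs of secreted and membrane proteins are translated by ribosomes docked at the endoplasmic reticulum (ER), to which a hydrophobic signal in the growing chain directs them.

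The labels do not say whether the shDAP5 heavy pool was cut from the gradient as the shNSi heavy pool was or as both shNSi pools together, and the shDAP5 light libraries carry the code that marks the moderate pool in the shNSi cultures. The study's methods define a light pool of mRNAs with few ribosomes and a heavy pool of mRNAs with more, the same for both lines, and do not place the moderate libraries of the shNSi cultures in either. The joined control is 1 of 3 possible readings, and its values are set beside those against the heavy pool alone and the moderate pool alone. The 2 shDAP5 libraries had 27482061 and 27825912 counts, and the joined columns 56624655 and 60846398. The moderate library supplied 50.4% and 50.6% of the joined counts, so the pools were weighted by sequencing depth and not by the RNA each held. Pearson's r of log2(CPM + 1) across the members, which are not independent replicates, was 0.986 between the shDAP5 libraries and 0.98 between the joined columns (CPM, counts scaled to the size of each library, with TMM factors). The mesenchymal marker VIM lay between 4411 and 8136 CPM, and the luminal marker PGR and the leukocyte marker CD3E had no read in the 4 columns. The 7 genes that should be absent or low summed to 22.6 to 25.9 CPM in shDAP5 and 20.1 to 22.3 CPM in the joined columns, most of it GATA3 at up to 15.6 CPM, EPCAM at up to 5.31 CPM and ERBB3 at up to 4.69 CPM, with ESR1 at up to 0.436 CPM. The fibroblast marker COL1A1 reached 39.8 CPM in the second joined column and lay at 15 to 16.8 CPM elsewhere. Of 9 genes that mark the line, CD44, LAMB3 and PLAUR were called lower and S100A4 higher, and the summed level of the 9 was 7540 to 8540 CPM in shDAP5 and 10500 to 13700 CPM in the joined columns. The study describes its replicates as complete, independently performed experiments, while the labels give only replicate numbers. The edgeR p-values and standard errors rest mainly on a spread between columns pooled over genes, and less on each gene's own columns. LAMB3, with 154 and 585 CPM joined, had a standard error of 0.38, and EIF4G2, with 1819 and 1415 CPM joined, 0.41.

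EIF4G2 itself had 665 and 667 CPM in the shDAP5 heavy libraries and 1819 and 1415 CPM in the joined columns. Both shDAP5 values lay below both joined values and below all 4 control pool libraries, with a log2 fold change of −1.28 (standard error 0.41, n = 2 against 2), but the edgeR adjusted p (quasi-likelihood F-test, Benjamini-Hochberg over all genes tested) was 0.0613, above the threshold of 0.05. In total mRNA EIF4G2 had 572 and 782 CPM in shDAP5 against 1486 and 1431 CPM in shNSi and was called lower (log2 fold change −1.11, edgeR adjusted p = 0.0178). An exact two-sided permutation test of 2 cultures against 2 cannot give a p under 0.333 for any gene.

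With the pools joined, edgeR called 409 of the 15227 genes at an adjusted p under 0.05, which is 2.69% of those tested. Of these, 324 (2.13%) were lower in shDAP5 heavy polysomes and 85 (0.558%) were higher, so that 79.2% of calls were lower. At an unadjusted p under 0.05 there were 1864 genes, 1259 lower and 605 higher, where 5% of the genes tested would be 761. The median log2 fold change over all members was −0.01. Library sizes without TMM scaling moved this median to 0.10 and left 39 calls, 59% of them lower, and limma on quantile normalized log2(CPM + 1) values called 0 genes at the same adjusted threshold, with 1564 at an unadjusted p under 0.05 and 886 of these lower. DESeq2 called 214 genes lower and 70 higher. Fewer mRNA molecules in the cell and fewer of them on polysomes cannot be told apart from polysome counts alone, and the values in total mRNA are given further on. Both shDAP5 values lay below both joined values in 3227 genes (21.2%) and above them in 2890 (19%). The plot of fold change against level shows the 409 calls on both sides of the unchanged majority.

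**Figure D1:**
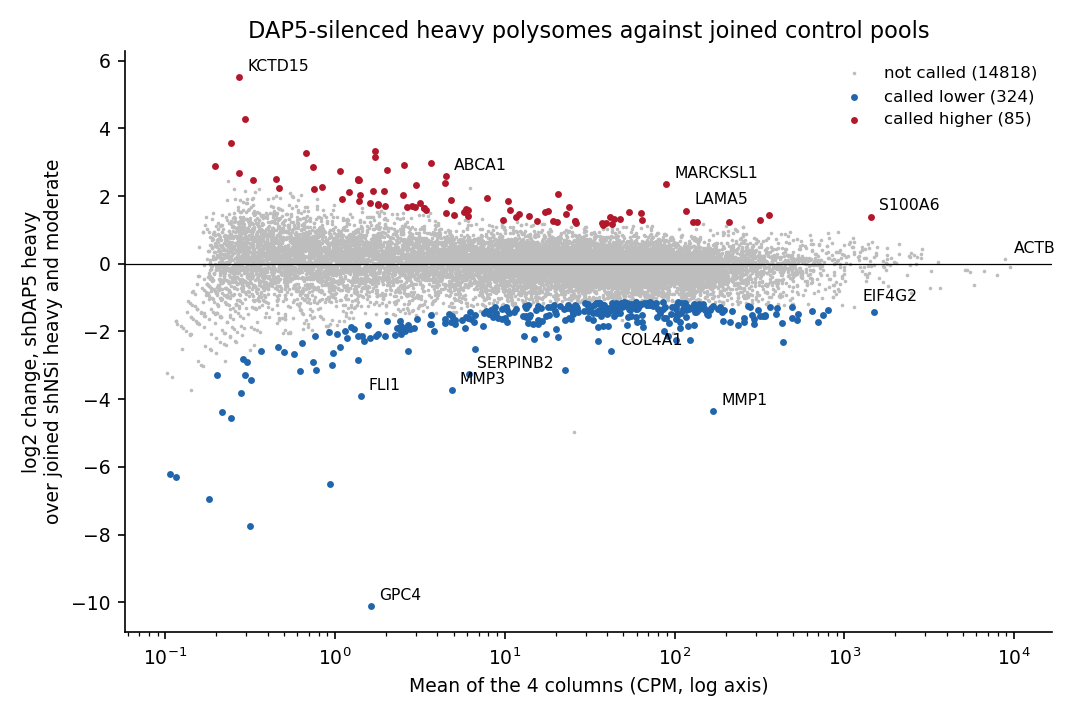
Log2 fold change of shDAP5 heavy polysomes over the joined shNSi heavy and moderate pools (vertical axis) against the mean of the 4 columns in CPM (horizontal, log axis), 1 point per gene. Genes called lower (324, blue) span the whole range of levels, and genes called higher (85, red) are fewer and mostly of low level; genes without a read in both shDAP5 libraries, such as GPC4, are drawn at their fitted value, which is no measured fold.

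The control cultures did not stand at the same level for these genes. Of the 324 genes called lower, 270 (83.3%) were higher in the second joined column than in the first, against 49.5% of all members, and the median difference over the 324 was 0.74 on the log2(CPM + 1) scale. Measured against the first joined column alone, the genes called lower had a median difference of −0.92, and against the second alone −1.63. Leaving out the second shNSi culture gave 66 genes called lower, 56 of them among the 324, and leaving out the first gave 689. Without the first or the second shDAP5 culture 12 and 33 genes were called lower, with a lone sample assumed to vary like the other group. For the 85 genes called higher the difference between the control columns had a median of 0.03, and leaving out the second shNSi culture gave 62 called higher, 44 of them among the 85, leaving out the first gave 195, and leaving out an shDAP5 culture gave 5 and 32.

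Against the shNSi heavy pool alone the same shDAP5 libraries gave 4316 calls among the same genes (28.3%), 2405 lower (15.8%) and 1911 higher (12.6%), and against the moderate pool alone 53 (0.348%), 26 lower (0.171%) and 27 higher (0.177%). These comparisons share the shDAP5 libraries and parts of the control, so their calls are given side by side only. Of the 324 genes lower against the joined control, 311 were also called lower against the heavy pool, which is 96% of the joined calls and 12.9% of the heavy-pool calls. Against the moderate pool 26 of them were called lower, 8.02% of the joined calls and 100% of the moderate-pool calls. Of the 85 higher genes, 80 (94.1%) were also higher against the heavy pool, where they made up 4.19% of the calls, and 18 (21.2%) against the moderate pool, where they made up 66.7%. The median log2 fold change of the genes called lower was −1.48 against the joined control, −2.10 against heavy alone and −0.69 against moderate alone, and 41 of them had a fold change above 0 against moderate alone. For the genes called higher the same medians were 1.68, 2.03 and 1.56, and none changed sign against either pool.

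A stricter reading asks whether both shDAP5 libraries lay beyond all 4 control pool libraries. This held below for 1126 members (7.39%) and above for 895 (5.88%). Among the called genes it held for 154 of 324 lower (47.5%) and 78 of 85 higher (91.8%). In the remaining called genes at least 1 control pool library reached the shDAP5 range.

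Genes called the same way against all 3 controls numbered 35, 21 lower and 14 higher, and were called whichever pools formed the control. MMP1, the interstitial collagenase, had 12 and 19.4 CPM in the shDAP5 libraries and 143 and 499 CPM in the joined columns, with 226 and 737 CPM in the shNSi heavy and 73 and 328 CPM in the shNSi moderate libraries when the 6 libraries were scaled together. Its 2 shDAP5 values lay far under every control library, although the control cultures themselves differed by more than 3 times. The log2 fold change was −4.35 (standard error 0.42, edgeR adjusted p = 3.82e-21). MMP3, stromelysin, lay at 0.328 and 1.03 CPM against 4.27 and 13.8 CPM, a log2 fold change of −3.74 (edgeR adjusted p = 6.59e-10). SERPINB2, an inhibitor of plasminogen activators, had 1.61 and 0.701 CPM against 13.1 and 9.22 CPM (log2 fold change −3.26, edgeR adjusted p = 8.64e-09).

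Others of the 21 lower genes encode surface and matrix proteins. IL13RA2, the decoy receptor for interleukin 13, had 29.9 and 41.1 CPM against 69.3 and 268 CPM, and ADAMTS1, a secreted protease that cleaves proteoglycans, 4.6 and 5.02 CPM against 20.1 and 22 CPM. In both genes the shDAP5 values stayed below all 4 control libraries. GPC4, a glypican, had no read in either shDAP5 heavy library and 186 and 180 counts in the joined columns, which is at least 31-fold lower in shDAP5 when 3 counts per library are taken as the floor. Another 3 of the 21, SAMSN1, AC007163.6 and RP11-460B17.3, were likewise at 0 in both shDAP5 libraries, with 11 to 37 counts in a joined column. Their fitted fold changes depend on the prior count and are not given. NDUFB4P8 and BNIP3P4 are processed pseudogenes that could share reads with their parent genes.

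Among the 14 genes higher against all 3 controls, MARCKSL1, which encodes a membrane-bound regulator of actin, had 186 and 112 CPM in the shDAP5 libraries against 37.7 and 20.2 CPM joined, with a log2 fold change of 2.36 (standard error 0.37, edgeR adjusted p = 2.21e-07). RASD1, a Ras-related GTPase, had 40.7 and 25.3 CPM against 10.2 and 5.62 CPM. ABCA1, the exporter of cholesterol from cells, had 10.8 and 4.54 CPM against 0.889 and 1.68 CPM (log2 fold change 2.58, edgeR adjusted p = 2.85e-05). Every shDAP5 value of these 3 genes exceeded all 4 control libraries, while the shDAP5 cultures differed from each other by more than 2 times in ABCA1. TSPYL5, LAMA5, the cyclin CCNA1 and the epithelial transcription factor ELF3 belong to the same group. RN7SL2, one of 2 near-identical genes for the RNA of the signal recognition particle, is uncertain because the copies share reads.

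**Figure D2:**
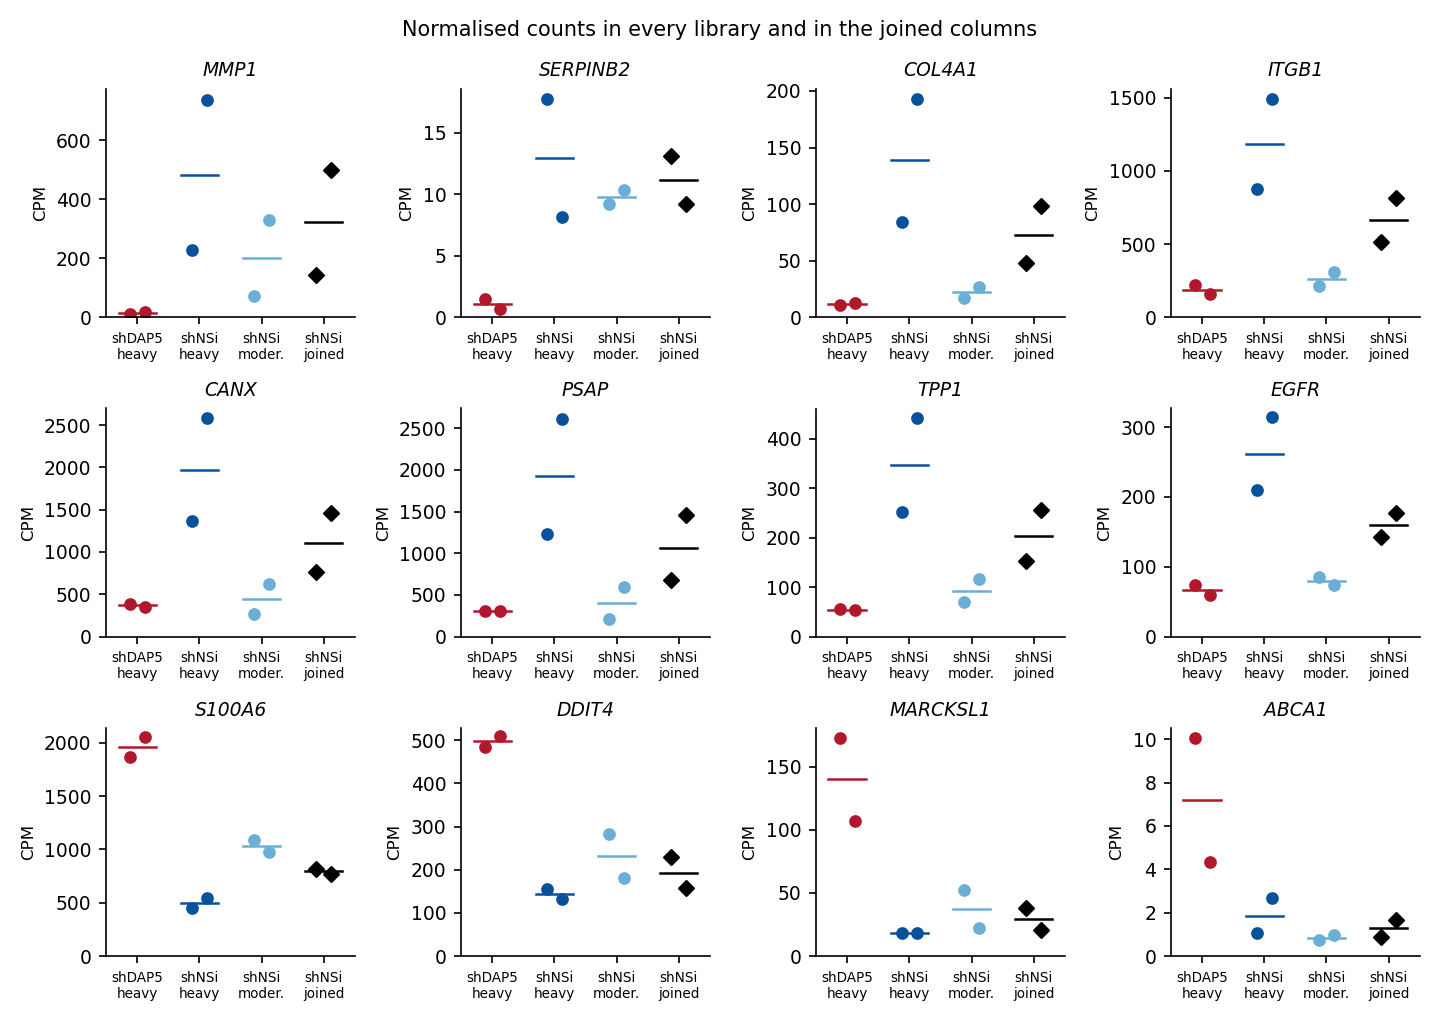
CPM of 12 genes in every library (circles: shDAP5 heavy, shNSi heavy, shNSi moderate, 2 each, scaled together over 6 libraries) and in the 2 joined columns (diamonds, scaled over 4 columns), with a line at each mean and a vertical axis from 0. MMP1, SERPINB2, COL4A1, TPP1 and EGFR in shDAP5 lie below all control libraries, ITGB1, CANX and PSAP overlap the moderate pool, and S100A6, DDIT4, MARCKSL1 and ABCA1 lie above all of them.

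Most of the genes called lower with a scored sequence had a feature that was not used to choose them, a hydrophobic stretch near the start of the protein. The coding sequences of 12667 members were taken from GENCODE v29 (GRCh38), translated and scored for hydropathy on the Kyte-Doolittle scale, and a gene was counted as having an N-terminal stretch when a window of 10 residues within the first 40 codons averaged at least 2, or else as having an internal stretch when a window of 19 residues further on averaged at least 1.6. Of the 311 scored genes called lower, 211 (67.8%) had an N-terminal stretch, 52 (16.7%) only an internal one and 48 (15.4%) none. Among all 12667 scored members the shares were 18.9%, 18% and 63.1%. Among the 66 scored genes called higher they were 19.7%, 16.7% and 63.6%, close to those of all members. In the comparisons that share libraries with this one, the N-terminal share was 26.6% of the genes called lower against the heavy pool alone and 50% of the 20 scored genes called lower against the moderate pool alone. In total mRNA, which shares no library but came from the same cultures, it was 52.9% of 34. Of the 40 genes called lower there, 35 were among the 324, so these are largely the same genes. With the heavy pool weighted 3 to 1 it was 38.1% of 1159. The measure is a sequence score and not an annotation of signal peptides, and it misses some secreted proteins, such as progranulin (GRN), with a best window of 1.99, and counts some cytoplasmic ones, such as S100A6, with 2.36.

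The starts of the coding sequences of the 4 most abundant such genes whose groups did not overlap show the feature. Each line gives the first 75 coding bases, 5′ to 3′, from the longest coding sequence in GENCODE v29 (GRCh38), with the 10 codons of the most hydrophobic window in capitals. CANX lies on chromosome 5 (plus strand), PSAP on chromosome 10 (minus strand), CALR on chromosome 19 (plus strand) and CD44 on chromosome 11 (plus strand).
CANX: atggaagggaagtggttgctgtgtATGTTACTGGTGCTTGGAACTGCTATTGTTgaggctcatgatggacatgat
PSAP: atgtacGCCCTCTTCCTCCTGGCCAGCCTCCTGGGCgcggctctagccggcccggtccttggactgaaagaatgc
CALR: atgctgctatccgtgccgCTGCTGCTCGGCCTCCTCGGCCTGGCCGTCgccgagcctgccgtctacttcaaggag
CD44: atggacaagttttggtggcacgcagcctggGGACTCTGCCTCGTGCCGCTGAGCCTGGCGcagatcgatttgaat
For contrast, the 2 most abundant genes called higher with no stretch begin as follows, DDIT4 on chromosome 10 (plus strand) and S100A4 on chromosome 1 (minus strand), neither of which enters the ER.
DDIT4: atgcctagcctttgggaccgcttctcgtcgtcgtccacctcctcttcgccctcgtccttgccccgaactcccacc
S100A4: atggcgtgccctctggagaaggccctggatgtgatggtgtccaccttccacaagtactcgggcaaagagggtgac
Leucine codons recur in the capitals of the first 4, as they do in many ER signal peptides, and the best windows of DDIT4 and S100A4 average −0.41 and 1.05.

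Counted over the classes, 211 of 2393 members with an N-terminal stretch were called lower (8.82%), 52 of 2283 with only an internal one (2.28%) and 48 of 7991 with none (0.601%), where 2.13% of all members were. The share called higher was 0.543%, 0.482% and 0.526%. The median log2 fold change was −0.34, −0.17 and 0.03 in the 3 classes. Against the heavy pool alone these medians were −0.21, −0.20 and 0.14, against the moderate pool alone −0.30, 0.00 and 0.08, and in total mRNA −0.19, −0.05 and 0.05. The order of the classes with and without an N-terminal stretch was the same against all 3 controls and before the gradient. These are not separate checks, because the 3 comparisons share the shDAP5 libraries and the joined control is the sum of both pools. The total mRNA came from the same cultures. The median coding length was 1359 bases with an N-terminal stretch, 1755 with only an internal one and 1392 with none.

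Coding length was also divided into 5 classes of nearly equal size. Within each of them the group with an N-terminal stretch had the larger share called lower. In the shortest class the share was 0.397% with an N-terminal stretch and 0.114% with none, in the middle class 12.2% and 0.433%, and in the longest 16.8% and 2.19%. Per library, genes with an N-terminal stretch took 9.97% and 10.8% of the scored counts in the shDAP5 heavy libraries, 11.3% and 14.9% in the shNSi heavy and 12.1% and 14.1% in the shNSi moderate libraries. Both shDAP5 shares lay below all 4 control shares, but these counts include the genes called lower. Without those genes the shares were 9.04% and 9.88% in shDAP5 heavy, 8.83% and 10.5% in shNSi heavy and 11.1% and 12.2% in shNSi moderate, and the shDAP5 heavy values lay inside the range of the shNSi heavy pool. Taking out genes chosen as lower in shDAP5 draws the shares together, so whether the rest of the class differed cannot be read from them. With all scored genes counted, the shares in total mRNA were 11.1% and 11.5% in shDAP5 and 12.2% and 13.8% in shNSi. The second shNSi culture had the larger share in every fraction, and without it 56 scored genes were called lower, of which 28 (50%) had an N-terminal stretch. The class median was −0.15 without that culture and 0.04 for genes with no stretch.

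**Figure D3:**
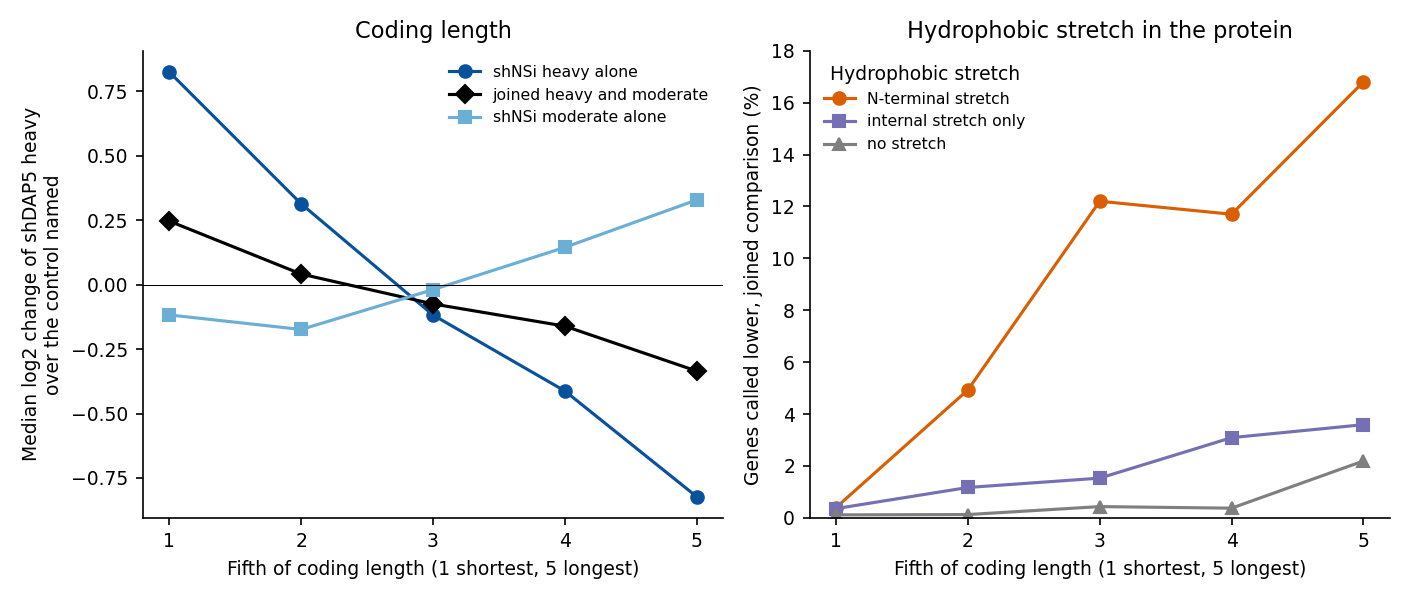
Left, median log2 fold change of shDAP5 heavy polysomes over each control (vertical axis) by class of coding length (horizontal, 1 shortest, 5 longest), for the heavy pool alone (circles), the joined control (diamonds) and the moderate pool alone (squares); the joined line falls from 0.25 to −0.34 and lies between the other two at both ends. Right, percent of genes called lower in the joined comparison by class of coding length for genes with an N-terminal hydrophobic stretch (circles), an internal one only (squares) or none (triangles), reaching 16.8%, 3.59% and 2.19% in the longest class.

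The gene groups below, of the extracellular matrix and its receptors first, are described by counts and medians, beside 2.13% lower, 0.558% higher and a median of −0.01 over all genes tested. Of 26 collagens tested 8 fell and none rose (median log2 fold change −0.84). COL4A1, an alpha chain of basement membrane collagen IV, had 11.5 and 12.7 CPM in shDAP5 against 47.6 and 98.2 CPM joined, a log2 fold change of −2.59 (standard error 0.37, edgeR adjusted p = 8.64e-09). Its partner chain COL4A2 had 34.8 and 51 CPM against 99.6 and 307 CPM. In neither gene did the shDAP5 values overlap the joined values, although COL4A2 overlapped the moderate pool. DESeq2 called 4 of the 26 collagens. Most calls were lost when the second shNSi culture or either shDAP5 culture was left out. The median was then −0.06 without the second shNSi culture, −0.83 without the first shDAP5 culture and −0.85 without the second.

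Of 23 collagen-modifying enzymes, a group drawn up after the calls had been read, 8 fell and none rose (median −1.01). They were the lysyl hydroxylases PLOD1, PLOD2 and PLOD3, which modify collagen lysines in the ER, the prolyl hydroxylases P4HA1, P4HA2 and P3H1, and the secreted cross-linking oxidases LOX and LOXL2. PLOD1 had 40.6 and 44.1 CPM against 74.3 and 213 CPM (log2 fold change −1.76, edgeR adjusted p = 0.000371). LOX was lower than all 4 control libraries, with 28.8 and 27.4 CPM against 124 and 59.9 CPM, and in it the first control culture was the higher one. Most calls of this group were lost when the second shNSi culture or either shDAP5 culture was left out. The median was then −0.46 without the second shNSi culture, −0.75 without the first shDAP5 culture and −1.15 without the second.

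Of 16 integrins 7 fell and none rose (median −1.11), namely ITGA1, ITGA2, ITGA5, ITGA6, ITGAD, ITGAV and ITGB1. DESeq2 called 3 integrins lower and 1 higher, a fit with a replicate block 6 and 1, and library sizes without TMM 0. ITGB1, the beta chain shared by most receptors for collagen, laminin and fibronectin, had 233 and 166 CPM in shDAP5 and 511 and 818 CPM joined (log2 fold change −1.74, standard error 0.40, edgeR adjusted p = 0.00252). In the single pools it had 875 and 1494 CPM in shNSi heavy but 211 and 312 CPM in shNSi moderate, so that the shDAP5 values reached those of the moderate pool. ITGA2 was called although its values overlapped, at 25.6 and 9.19 CPM against 20.7 and 70.3 CPM. ITGAD, a leukocyte integrin gene, had fewer than 2 CPM in every column. Of 10 laminins 4 fell and 1 rose (median −0.90), while DESeq2 called 2 lower and 1 higher. LAMB3, LAMC1 and LAMA1 were among the 4 that edgeR called lower, whereas LAMA5, the alpha chain of laminin-511, had 235 and 114 CPM in shDAP5 against 31.7 and 85.6 CPM and rose by 1.57 on the log2 scale (standard error 0.36, edgeR adjusted p = 0.00266). The LAMA5 shDAP5 values lay above both joined columns but overlapped the second shNSi heavy library at 122 CPM. Of 14 matrix metalloproteinases and their inhibitors 3 fell, MMP1, MMP3 and the membrane-bound MMP14, and none rose (median −0.43). Most integrin and laminin calls were lost when the second shNSi culture or either shDAP5 culture was left out. Without the second shNSi culture the median was −0.52 in integrins, −0.41 in laminins and 0.01 in metalloproteinases and inhibitors. Without the first shDAP5 culture the medians were −1.15, −1.02 and −0.41, in the same order, and without the second −0.91, −0.76 and −0.72.

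Among serpins, another group drawn up after the calls had been read, 3 of 15 fell, SERPINB2 and SERPINA1 among them, with a median over the group of −0.05. Without the first shDAP5 culture 1 serpin was called (median −0.38), without the second 3 (0.10), without the first shNSi culture 5 (−0.47) and without the second 2 (0.02). SERPINA1, the inhibitor of neutrophil elastase, was called although its values overlapped, at 1.48 and 4.5 CPM in shDAP5 against 2.72 and 15.4 CPM joined (edgeR adjusted p = 0.0206). ECM1, a secreted matrix glycoprotein, had 8.63 and 15.6 CPM against 40.5 and 77.7 CPM, and IGFN1, a protein of fibronectin and immunoglobulin repeats, 4.46 and 4.8 CPM against 20.3 and 60.6 CPM.

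Lysosomal proteins are made on ER-bound ribosomes and sorted onward through the Golgi. Of 51 tested, a group drawn up after the calls had been read, 17 fell and none rose, and the median was −1.07. Without adjustment 39 of the 51 had a p under 0.05, all of them lower. The 17 include membrane proteins (LAMP1, LAMP2, LAMP3, NPC1), proteases (CTSS, CTSV, TPP1), sphingolipid hydrolases (ASAH1, SMPD1), the hexosaminidase subunit HEXA and PSAP, the precursor of the saposins that assist lipid hydrolysis. PSAP had 330 and 321 CPM in shDAP5 against 675 and 1456 CPM joined (log2 fold change −1.71, standard error 0.41, edgeR adjusted p = 0.00428). Its moderate pool values of 216 and 589 CPM lay on either side of the shDAP5 values of 307 and 306 CPM on the same scale. TPP1, a tripeptidyl peptidase, had 59.9 and 55.5 CPM against 152 and 255 CPM and was below all 4 control libraries. The abundant proteases CTSB (log2 fold change −0.83) and CTSD (−0.50) did not pass the test, with overlapping values. Most calls were lost when the second shNSi culture or either shDAP5 culture was left out. The median was then −0.55 without the second shNSi culture, −0.87 without the first shDAP5 culture and −1.26 without the second.

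The folding and glycosylation machinery of the ER showed the same direction. Of 25 ER chaperones and unfolded protein response genes 7 fell and none rose (median −0.89). They were the lectin chaperones CANX and CALR, the disulfide isomerases PDIA3 and PDIA6, the co-chaperone DNAJC3, HYOU1 and SEL1L, an adaptor for degradation of misfolded proteins. CANX had 417 and 365 CPM in shDAP5 against 762 and 1458 CPM joined (log2 fold change −1.50, edgeR adjusted p = 0.0152). CALR had 321 and 385 CPM against 538 and 1332 CPM (log2 fold change −1.40, edgeR adjusted p = 0.0262). In both, shDAP5 lay under both joined columns and inside the range of the moderate pool. Of 53 genes for ER translocation and N-glycosylation, a group drawn up after the calls had been read, 9 fell and none rose (median −0.56). These were the catalytic subunits of the oligosaccharyltransferase STT3A and STT3B, its subunit MAGT1, the glucosidase genes GANAB, PRKCSH and MOGS, the folding sensor UGGT1, and ALG6 and ALG8, which add glucose to the glycan precursor. The calls of both groups were lost when the second shNSi culture or either shDAP5 culture was left out. The medians were then −0.27 and −0.28 without the second shNSi culture. They were −0.76 and −0.36 without the first shDAP5 culture, and −0.996 and −0.76 without the second.

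Of 17 genes of the MHC class I pathway, which displays peptides on the cell surface, 7 fell and none rose (median −1.12). CALR and PDIA3 are counted here too, as parts of the peptide-loading complex. ERAP1, the ER peptidase that trims peptides, had 16.3 and 13.9 CPM against 32.7 and 78.4 CPM (log2 fold change −1.88, edgeR adjusted p = 0.000122). HLA-B had 110 and 238 CPM against 197 and 823 CPM, so the higher shDAP5 value overlapped the lower joined value, and the same overlap was seen for HLA-C. HLA genes are near-identical in sequence, and how the counting split their reads is not given in the sources used here. The calls of this group were lost when the second shNSi culture or either shDAP5 culture was left out. The median was then −0.19 without the second shNSi culture, −0.87 without the first shDAP5 culture and −1.22 without the second.

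Of 26 receptor tyrosine kinases 3 fell, EGFR, MET and PTK7, and none rose (median −0.55). EGFR had 78.9 and 62.3 CPM in shDAP5 against 142 and 176 CPM joined (log2 fold change −1.17, edgeR adjusted p = 0.0415), and MET, the receptor for hepatocyte growth factor, 48.2 and 45.6 CPM against 99.2 and 140 CPM. Both genes lay below all 4 control libraries. Without the second shNSi culture, and without either shDAP5 culture, 0 of the 26 were called. Of 214 solute carriers 7 fell and 1 rose (median −0.37). SLC1A7, a glutamate transporter, rose by 3.32 on the log2 scale from 0.296 and 0.324 CPM to 4.43 and 1.81 CPM. Leaving out the second shNSi culture gave 1 solute carrier lower and 1 higher, the first shDAP5 culture 0 and 0, and the second 1 and 1. Among 30 genes with a CD symbol, CD44 and CD33 fell, and 0 were called without the second shNSi culture or without either shDAP5 culture.

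**Figure D4:**
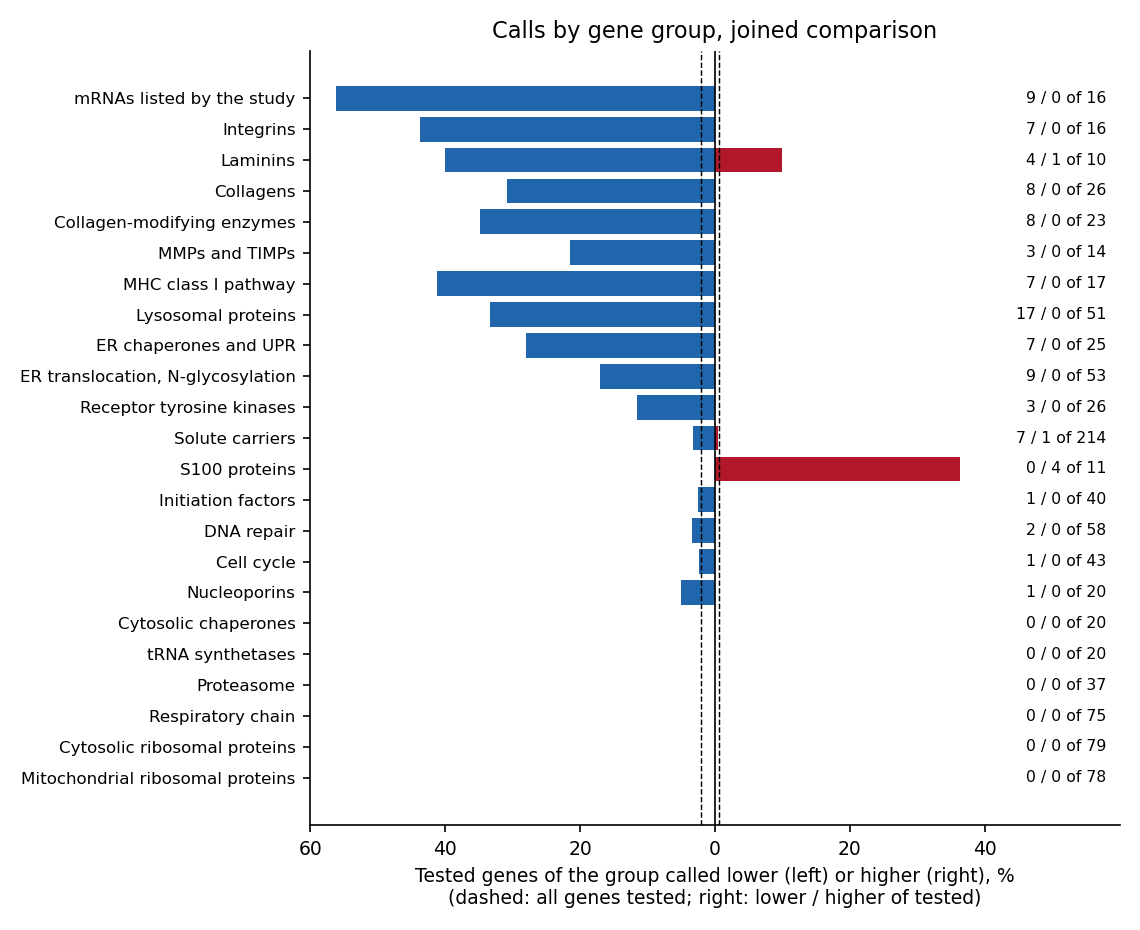
Percent of the tested genes of 23 selected groups called lower (blue, to the left) or higher (red, to the right) in the joined comparison, with dashed lines at 2.13% and 0.558% for all genes and the counts at the right. Matrix, receptor, lysosomal, ER and MHC class I groups stand at the top, S100 proteins are called higher only, and the 6 groups at the bottom have 0 calls, as do other groups that are described in the text and not drawn.

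In the S100 family of small calcium-binding proteins the direction was the opposite. Of 11 tested, a group drawn up after the calls had been read, 4 rose and none fell (median 0.98). S100A6, the most abundant gene called higher, had 2010 and 2158 CPM in shDAP5 against 817 and 771 CPM joined (log2 fold change 1.39, standard error 0.42, edgeR adjusted p = 0.0369). S100A4, a protein linked to cell motility, had 484 and 418 CPM against 208 and 160 CPM, and S100A2 had 96.4 and 91 CPM against 34.9 and 30.7 CPM. In each of these genes both shDAP5 libraries lay above all 4 control libraries. Their coding sequences are among the shortest, 270 bases in S100A6, and with an offset for coding length 0 of the 11 were called and the median was 0.51. Without either shDAP5 culture 0 of the 11 were called, with medians of 1.18 and 0.92, and without the second shNSi culture or without TMM 1 was called.

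Further genes that rose have varied functions. DDIT4, an inhibitor of mTOR complex 1 induced by stress, had 521 and 534 CPM in shDAP5 against 229 and 157 CPM joined (log2 fold change 1.45, edgeR adjusted p = 0.0147). SCD, the desaturase that makes monounsaturated fatty acids, had 361 and 227 CPM against 141 and 107 CPM. BCL3, a nuclear partner of NF-κB, had 37.9 and 34.8 CPM against 9.1 and 13.7 CPM. SOCS2, a suppressor of cytokine signalling, had 18.2 and 14.3 CPM against 7.51 and 3.15 CPM. In these 4 genes too the shDAP5 values exceeded all 4 control libraries. The cytokine IL6 (log2 fold change 1.27), and the transcription factors SNAI1 (1.6), which drives epithelial-mesenchymal transition, and SOX4 (1.42) also rose. LINC00511, a long noncoding RNA, had 17 and 15.6 CPM against 3.89 and 5.13 CPM. SLCO4A1-AS1 rose together with SLCO4A1, the gene it lies antisense to, and their values are uncertain because a tag in the name of the deposited table is all that speaks for counting by strand. RNA5-8SP6 is a ribosomal RNA pseudogene whose reads are not unique to it.

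Of the 16 mRNAs that the study listed as most reduced in polysomes, a list chosen on these samples and so no independent evidence of direction, 9 fell and none rose (median −1.20). Besides MMP1, MMP3, ITGAV, ITGA1, ITGA5, EGFR and LAMC1, these were FLI1 and OSMR. FLI1, an ETS family transcription factor, had 0.164 and 0.185 CPM in shDAP5 against 4.69 and 0.613 CPM joined, 2 control values that differed by more than 7 times. OSMR, the oncostatin M receptor, had 42.8 and 32 CPM against 60.7 and 102 CPM (log2 fold change −1.12, edgeR adjusted p = 0.0488). The 7 that did not pass were SERPINE2 (log2 fold change −1.09), ITGA3 (−1.23), ETS1 (−0.82), TP53BP1 (−0.82), CDK12 (−0.74), JUN (0.22) and MYCL (0.09). Their edgeR adjusted p-values ran from 0.0659 in SERPINE2 to 0.98 in MYCL. ITGA1, at an edgeR adjusted p of 0.0499, stood nearest the threshold and had a log2 fold change of 0.20 against the moderate pool alone. Of the 16, 3 were called without the second shNSi culture and 3 without either shDAP5 culture, and DESeq2 called 5.

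None of 4 comparison mRNAs was called, with log2 fold changes of −0.11 for GAPDH, 0.11 for HNRNPD and −0.44 for LMNA, whose proteins the study used as controls independent of DAP5, and 0.13 for ACTB, which it treated as dependent on eIF4E. At an unadjusted p under 0.05 the count was also 0, and DESeq2 and limma called 0. Against the heavy pool alone 1 of the 4, LMNA, was called lower (log2 fold change −1.16, edgeR adjusted p = 0.0139) and 0 higher. The sign for ACTB, GAPDH, HNRNPD and LMNA changed when single cultures were left out, so no direction is given for them.

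Groups of soluble and mitochondrial proteins were mostly uncalled. Among 79 cytosolic ribosomal proteins edgeR called 0, with 8 higher and 0 lower at an unadjusted p under 0.05, and the median was 0.42. Against the heavy pool alone 64 of the same 79 were called higher. Among 75 respiratory chain genes 0 were called, with 14 higher and 1 lower at an unadjusted p under 0.05 (median 0.39), against 54 called higher with the heavy pool alone. Among 78 mitochondrial ribosomal proteins 0 were called, with 1 higher at an unadjusted p under 0.05 (median 0.22), against 46 higher with the heavy pool alone. Without the second shDAP5 culture the 3 medians were 0.06, 0.15 and −0.004, in the same order. With the offset for coding length they were 0.09 in cytosolic ribosomal proteins, 0.05 in the respiratory chain and −0.04 in mitochondrial ribosomal proteins. DESeq2 and limma called 0 in these 3 groups as well.

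Of 40 initiation factors 1 fell (2.5%, beside 2.13% of all genes), EIF5B, which joins the ribosomal subunits, with 92.9 and 75.2 CPM against 116 and 279 CPM. DESeq2 and a fit with a replicate block called 0 of the 40. EIF5B had a log2 fold change of −1.23 (edgeR adjusted p = 0.0322) against the joined control and 0.61 against the moderate pool alone. Of 58 DNA repair genes 2 fell, PRKDC among them, a share of 3.45% beside 2.13% of all genes (median −0.37), and 0 of the 58 were called without the second shNSi culture or without either shDAP5 culture. Among 43 cell cycle genes RB1 fell (2.33%), and among 60 chromatin modifiers CHD4 (1.67%), where DESeq2 and the replicate block called 0 chromatin modifiers. MYH9, the heavy chain of non-muscle myosin IIA, fell among 58 motor genes with 298 and 193 CPM against 484 and 1001 CPM. FLNA, the actin cross-linker filamin A and the most abundant gene called lower, had 886 and 743 CPM against 1469 and 2875 CPM (log2 fold change −1.42, edgeR adjusted p = 0.0339). Neither MYH9 nor FLNA has an N-terminal stretch, their coding sequences of 5880 and 7941 bases fall in the longest class, and both had log2 fold changes above 0 against the moderate pool alone, 0.16 and 0.39.

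EdgeR called 0 genes in 37 proteasome genes, 20 tRNA synthetases, 17 transcriptional CDKs and cyclins, 20 cytosolic chaperones, 21 glycolytic enzymes, 27 cholesterol synthesis enzymes and 10 mRNAs reported to hold an IRES. At an unadjusted p under 0.05 these groups had 0, 3, 1, 3, 3, 2 and 2 genes lower and 0, 0, 0, 0, 0, 1 and 1 higher. DESeq2 called 1 of the IRES group, EIF4G2, which is the silenced gene itself, and 0 in the others, and limma called 0. Of 40 interferon-stimulated genes IFITM1 rose, with 5.61 and 4.17 CPM against 1.5 and 1.33 CPM. Of 415 ZNF genes ZNF580 rose, and of 175 long noncoding RNAs LINC00887 and LINC00511 rose and LINC02188 fell. FLI1 alone fell among 24 ETS and AP-1 factors, DHX9 among 51 DEAD and DEAH helicases and NUP210 among 20 nucleoporins, the last 2 groups drawn up after the calls had been read.

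Coding length, which the choice of members did not use, followed the fold change in a way that depended on the control. The 12693 members with a coding sequence were split into the same 5 classes of length. Against the joined control the median log2 fold change went from 0.25 in the shortest class to −0.34 in the longest, against the heavy pool alone from 0.83 to −0.82, and against the moderate pool alone from −0.12 to 0.33. Spearman's rho across genes, given as a description, was −0.40, −0.64 and 0.33. The genes called lower had a median coding length of 2178 bases and those called higher 1089, against 1434 for all members. The share called was 1.1% in the shortest class and 5.28% in the longest. With an offset for coding length fitted in each column, 14 genes were called lower and 11 higher. Of the groups above, that offset left 1 of the 51 lysosomal genes called, 1 collagen, 1 laminin (higher), 2 metalloproteinases, 2 serpins, 2 mRNAs of the study's list, and 0 integrins, receptor tyrosine kinases, MHC class I genes, ER chaperones, ER translocation and collagen-modifying genes. Under the offset the medians were −0.89 in lysosomal, −0.92 in MHC class I, −0.77 in ER chaperone, −0.61 in ER translocation and −0.92 in collagen-modifying genes. They were −0.81 in integrins, −0.35 in collagens, −0.44 in laminins, −0.19 in receptor tyrosine kinases and −0.86 in the study's list. Metalloproteinases with their inhibitors had −0.40 and serpins −0.04.

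In total mRNA, tested over 15084 genes in the 4 libraries of whole-cell RNA, edgeR called 53 genes (0.351%), 40 lower (0.265%) and 13 higher (0.0862%). The shDAP5 total libraries are titled total polysome and were read as total mRNA by their code. Of the 318 genes lower in the joined comparison that could be tested in total mRNA, all 318 had a fold change under 0 there, and all 82 testable genes called higher had one above 0, where 75.4% of all 14704 shared members had the same sign in both. Of these, 35 and 8 passed the test in total mRNA. The median log2 fold change of the lower genes was −1.48 in the joined polysomes and −0.87 in total mRNA, and that of the higher genes 1.68 and 1.41. The genes were chosen on the polysome columns, which by itself tends to enlarge the polysome medians.

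Some genes moved in total mRNA by about as much as in polysomes. SERPINB2 had 0.61 and 0.636 CPM in shDAP5 total mRNA against 9.71 and 4.57 CPM, a log2 fold change of −3.51 (edgeR adjusted p = 0.00305), beside −3.26 in polysomes. MMP1 had 16.2 and 19.2 CPM against 130 and 304 CPM (log2 fold change −3.61, edgeR adjusted p = 0.0593). ABCA1 rose by 2.77 in total mRNA (edgeR adjusted p = 0.0287). In other genes the polysome difference was larger, with COL4A1 at −2.59 in polysomes and −1.26 in total mRNA, ITGAV at −1.66 and −0.59, and ITGB1 at −1.74 and −0.71.

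The change in translation efficiency, the polysome change beyond that in total mRNA, was tested as an interaction over the 4 columns and the 4 total libraries of 14704 genes. The test called 0 genes (0%), with a lowest adjusted p of 0.141. At an unadjusted p under 0.05 there were 345 genes, 147 lower and 198 higher, where 5% of the genes tested would be 735. DESeq2 and limma also called 0, with 137 and 272 genes at an unadjusted p under 0.05. The median interaction was −0.50 for the genes called lower in the joined comparison and 0.44 for those called higher. The same 4 polysome columns had been used to call these genes, so both directions were favoured in advance and are no evidence of a shift. With the heavy pool alone as the control the same test called 2050 of 14189 genes, a set filtered on its own columns.

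**Figure D5:**
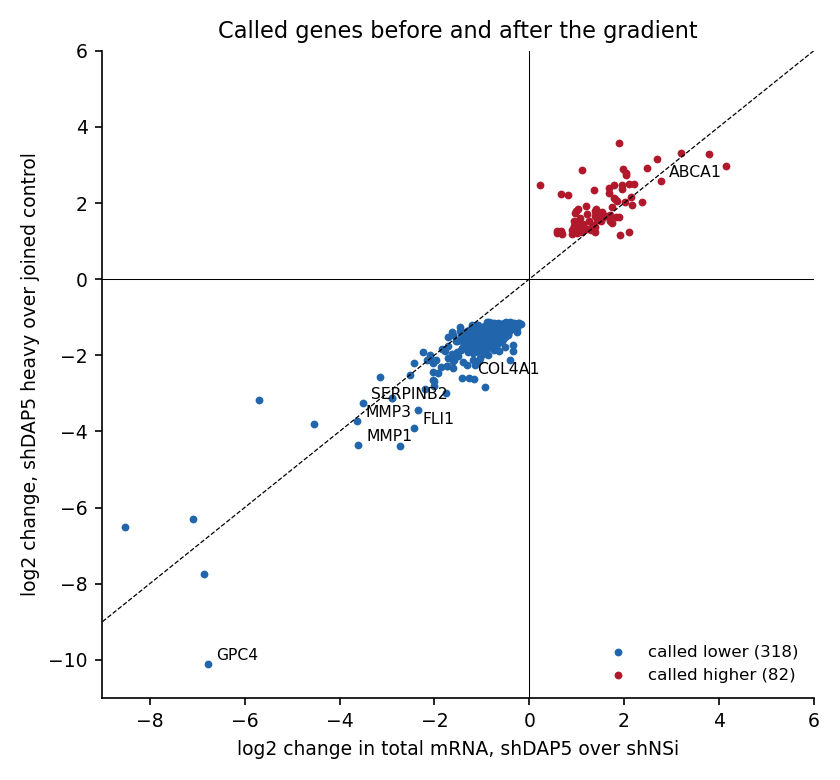
Log2 fold change in total mRNA (horizontal axis) against that of shDAP5 heavy polysomes over the joined control (vertical axis) for the called genes testable in both, 318 lower (blue) and 82 higher (red), with a dashed line where both are equal. All points lie in the lower left or upper right of the plot; GPC4 and other genes without a read in the shDAP5 libraries are drawn at fitted values.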

How the data were processed

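Total mRNA and gradient pools of MDA-MB-231 cultures were sequenced by the authors, who deposited whole-number read counts per gene symbol without normalization for 14 libraries of 25899838 to 30795910 counts. The submitters' processing notes name STAR 2.6.0a, limma and hg19. The name of the deposited table carries the words featureCounts and rev, and no other source used here gives the counting tool or its strand setting. Samples were grouped by their titles, and 27 symbols turned into dates were left as they stood. All 14 columns belonged to this series (0 others).

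The counts were tested in R 4.3.3 with edgeR 4.0.16 (TMM, robust quasi-likelihood, Benjamini-Hochberg adjustment over all genes tested, threshold 0.05, at least 10 counts in 2 columns), each comparison in a fit of its own 4 columns and translation efficiency in 1 fit of 8 with a term for each culture. The floor of 3 counts per library corresponds to 0.105 CPM in shDAP5. That floor covers counting error only. Standard errors were taken as the absolute log2 fold change over the square root of the F statistic, and so include the fitted spread between columns. DESeq2 1.42.0 and limma 3.58.1 (log2 of CPM plus a pseudocount of 1) were alternatives, beside other filters, weights of the pools, a length offset, a replicate block and each culture left out. The scripts were tested on simulated data. Symbols were matched to GENCODE v29 (38246 of 58434, 627 by an older symbol), and no coordinates were taken over because the builds differ.

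Members and gene lists were chosen with earlier results of these data known, and the lysosomal, ER translocation, collagen-modifying, serpin, S100, CD, helicase and nucleoporin lists after the calls had been read. Genes were named by rule: EIF4G2, the study's list, its controls and ACTB, the 8 lowest, 8 highest and 8 most abundant in each direction among called genes of at least 10 CPM whose groups did not overlap (228 lower and 34 higher qualified), and up to 2 called members per list and direction, or the member of smallest p. Others, including those called against all 3 controls, IL6, SNAI1, SOX4 and members of the later lists, were named after their values were seen. Some genes that the rule selects are not reported here.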

Additional observations from a re-analysis of the deposited data

How the results depend on the processing

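The joined calls of 324 lower and 85 higher genes became 214 lower with DESeq2, 23 and 16 without TMM, 0 and 0 with limma after quantile normalization, 1197 and 500 with the heavy pool weighted 3 to 1, 47 and 34 with the moderate pool weighted 3 to 1, 14 and 11 with a coding length offset, 2405 and 1911 against the heavy pool alone and 26 and 27 against the moderate pool alone. Leaving out each culture gave 12 to 689 lower and 5 to 195 higher. Both counts stayed within 1.5 times under no filter, filterByExpr, 10 counts in every column and pools of equal depth. No called gene was called the other way under any alternative. Calls in total mRNA (53) became 273 with DESeq2, 18 without TMM, 5 with limma, 577 without a filter and 0 to 330 without single cultures. Calls in translation efficiency (0) became 2050 against the heavy pool alone and 0 to 104 without single cultures. In all these cases the cause was not tested.

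A replicate block gave 365 lower and 117 higher joined calls and 392 in total mRNA. The study describes independent complete experiments, but neither it nor the labels say which shNSi and shDAP5 cultures belong to the same one, and same-numbered deviations correlated at 0.13 in joined polysomes, −0.13 in total mRNA and −0.29 in translation efficiency, so the numbers were not taken as pairs. With the pairing crossed, chosen after seeing the data, total mRNA had 75 calls and translation efficiency 2.

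Against the moderate pool alone the log2 fold change turned in CDK12 (0.34), CHD4 (0.42), EIF5B (0.61), EPRS (0.47), FLNA (0.39), GAPDH (0.19), HK1 (0.54), HSPH1 (0.43), ITGA1 (0.20), LMNA (0.63), MYCL (−0.41), MYH9 (0.16), PRKDC (0.045), PSMD1 (1.04) and TP53BP1 (0.81). With the moderate pool weighted 3 to 1 it turned in GAPDH (0.056), LMNA (0.025) and MYCL (−0.17), without TMM in GAPDH (0.0027) and with limma in MYCL (−0.014). Without single cultures it ran from −0.12 to 0.38 in ACTB, −0.32 to 0.16 in GAPDH, −0.12 to 0.34 in HNRNPD, −0.070 to 0.60 in JUN, −0.79 to 0.072 in LMNA and −0.12 to 0.39 in MYCL. Over the named genes and settings, 848 values kept their call, 380 lost it and 40 gained one, beside 29 that turned.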

Other observations

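C3, the central complement component, stood far apart in the control cultures, with 87 counts in the first joined column and 5412 in the second. The shDAP5 libraries had 31 and 58 counts, level with the first control culture, and the gene did not pass the test (log2 fold change −4.98, edgeR adjusted p = 0.733). SREBF1, the transcription factor for lipid synthesis genes, had 94.5 and 94.5 CPM in shDAP5 against 23.4 and 64.3 CPM joined and missed the threshold (log2 fold change 1.11, edgeR adjusted p = 0.0536).

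In the shNSi cultures the genes called lower in shDAP5 were more abundant in the heavy than in the moderate pool, with a median difference of −1.42 (moderate minus heavy, log2(CPM + 1)) against 0.08 for all members, and 0.17 for the genes called higher. The same shNSi counts had entered the choice of these genes, so the differences are no independent observation.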
